A study of Homo sapiens with 12 samples.

Results

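The EGFR family covers the epidermal growth factor receptor and its relatives together with the ligands that bind them. All array probes whose platform gene symbol was EGFR, ERBB2, ERBB3, AREG, EREG, HBEGF, TGFA or BTC were taken, which gave 15 of the 47323 probes and 7 of the 20046 genes that the annotation names. The eighth gene is missing: no probe carried the symbol of AREG, the ligand amphiregulin, in the annotation used here, so AREG was not analysed here. Expression was measured on 12 Illumina bead arrays in PANC-1 cells, a long-used human line derived from a pancreatic ductal tumour. In the knockdown group (6 arrays) the cells carried an integrated pLKO.1 lentiviral vector whose short hairpin RNA targets TIMP1, a secreted inhibitor of metalloproteinases. In the control group (6 arrays), which the sample titles call WildType, the cells carried the pLKO.1 puro vector without that hairpin, so the controls also carry a lentiviral insertion and both groups were grown with puromycin. The labels do not say whether either line was a clone or a pool, nor whether replicates 1 to 6 came from separate cultures. The p-values therefore set a group difference only against the spread of these samples, and that spread may be technical. The effect of the hairpin cannot be told apart from other differences between the knockdown and control lines.

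EGFR, ERBB2 and ERBB3 are receptor tyrosine kinases that pair on the cell surface when a ligand binds. ERBB2 binds no known ligand and ERBB3 has little kinase activity of its own, so both signal mainly as partners of another receptor. The ligands are made as membrane-anchored precursors, and metalloproteinases of the ADAM type, among them ADAM17 and ADAM10, cut them loose, a step that TIMPs can restrain. Transcript levels do not show how much ligand was shed. In bulk RNA of this kind, fewer cells that express a gene and less RNA per cell cannot be told apart.

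Promoter sequences are shown for the 4 genes whose transcripts were detected (EGFR, EREG, HBEGF and TGFA), the genes whose values are compared below. The 250 bases before the 5′ end of each gene were taken from RefSeq promoter sequences of build GRCh38.p14, at chr7:55018767-55019016 on the plus strand for EGFR, chr4:74364895-74365144 on the plus strand for EREG, chr5:140346604-140346853 on the minus strand for HBEGF and chr2:70553827-70554076 on the minus strand for TGFA. Sequences are written 5′ to 3′ on the strand of the gene. Capitals mark matches on either strand to motifs of promoters. The GC box was searched as GGGCGG. The TATA box was searched as TATAAA, a sequence near the start of some genes. The CCAAT box was searched by the letters of its name. For the AP-1 site, the target of FOS and JUN proteins, TGANTCA was used. For the cyclic AMP response element, or CRE, it was TGACGTCA.
EGFR: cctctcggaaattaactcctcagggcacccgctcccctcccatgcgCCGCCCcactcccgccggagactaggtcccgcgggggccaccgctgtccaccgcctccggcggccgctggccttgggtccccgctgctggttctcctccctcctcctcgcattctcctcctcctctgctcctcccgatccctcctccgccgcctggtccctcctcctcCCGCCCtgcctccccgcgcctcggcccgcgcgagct
EREG: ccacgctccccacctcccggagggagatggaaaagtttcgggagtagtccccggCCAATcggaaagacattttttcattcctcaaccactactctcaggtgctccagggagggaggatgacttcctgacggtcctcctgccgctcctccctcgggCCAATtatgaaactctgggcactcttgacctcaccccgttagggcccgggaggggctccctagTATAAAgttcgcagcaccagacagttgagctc
HBEGF: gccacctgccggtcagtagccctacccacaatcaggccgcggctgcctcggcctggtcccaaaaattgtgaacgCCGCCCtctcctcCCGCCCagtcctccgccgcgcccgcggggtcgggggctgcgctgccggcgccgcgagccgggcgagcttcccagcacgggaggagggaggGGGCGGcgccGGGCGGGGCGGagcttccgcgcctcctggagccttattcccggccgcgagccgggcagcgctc
TGFA: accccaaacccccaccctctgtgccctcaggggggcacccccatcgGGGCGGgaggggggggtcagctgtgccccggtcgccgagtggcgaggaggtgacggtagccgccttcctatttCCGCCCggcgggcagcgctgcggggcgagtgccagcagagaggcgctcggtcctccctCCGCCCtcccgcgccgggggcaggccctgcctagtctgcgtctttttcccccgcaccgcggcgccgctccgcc
The EREG window held 1 TATA box match, 32 to 27 bases before the start, and 2 CCAAT matches. The other 3 windows held none of either and carried GC box matches instead, 2 in EGFR, 5 in HBEGF, where 2 of them shared a base, and 3 in TGFA. G and C made up 58.0% of the EREG window, 76.4% of the HBEGF window, 75.6% of the TGFA window and 73.6% of the EGFR window. Of 35116 RefSeq promoter windows of the same length, 10.7% held a TATA box match, 32.0% a CCAAT match, 42.6% a GC box match, 6.57% an AP-1 match and 1.65% a CRE match. None of the 4 windows held an AP-1 or CRE match. RefSeq also gives a further start inside EGFR and inside TGFA, whose windows are not printed: that of EGFR, at chr7:55109589-55109838, held 2 AP-1 and 2 TATA box matches, and that of TGFA, at chr2:70553447-70553696, held no match to any of the motifs. A match of letters describes the window and is no evidence of binding.

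The knockdown arrays had between 15898 and 17680 detected probes and the control arrays between 15681 and 16565 (detection p, the comparison of a probe with the negative controls of its array, under 0.05). The mean was 16861 ± 641 in the knockdown and 16160 ± 350 in the control group (SD, n = 6 each; exact two-sided permutation p = 0.0498), and knockdown 2 and knockdown 6 had the most. TIMP1 itself lay between 13.49 and 13.63 on the normalised log2 scale on the knockdown arrays (median 13.56) and between 13.64 and 13.86 on the control arrays (median 13.75). Its log2 fold change, knockdown minus control throughout, was -0.19 ± 0.04 (SE; limma adjusted p = 0.101; exact two-sided permutation p = 0.00216, the smallest that 6 against 6 arrays can give). On the linear scale the knockdown arrays held 12.5% less TIMP1 signal. Its raw signal ran from 10920 to 13190 on the knockdown and from 12620 to 15950 on the control arrays. The highest signal of any probe was 19220, and whether so bright a probe understates a difference was not tested. All 6 duct epithelial markers (KRT7, KRT8, KRT18, KRT19, EPCAM and SOX9) were detected, and none of the 6 fibroblast and stellate cell markers was. Of the 4 leukocyte markers with a probe CD14 was detected, of the 4 endothelial markers PECAM1, and of the 5 acinar and islet markers PRSS1 and CELA3A. None of these markers passed the test. EPCAM, an epithelial adhesion molecule, lay between 11.63 and 11.80 on the knockdown arrays and between 11.79 and 11.86 on the control arrays, with a log2 fold change of -0.10 (limma adjusted p = 0.26) and -0.14 and -0.12 on its other detected probes. The keratins KRT7, KRT19 and KRT18 had 0.11, 0.13 and -0.05, CD14 0.12 and PECAM1 0.04. The other detected probe had 0.06 for KRT18 and 0.31 for CD14. Without knockdown 2 and knockdown 6 the values were 0.05, 0.06, -0.03, 0.03 and -0.10 for KRT7, KRT19, KRT18, CD14 and PECAM1. The trypsinogen PRSS1, which lay between 11.20 and 11.44 on the knockdown arrays and between 11.49 and 11.63 on the control arrays, had a log2 fold change of -0.19 (limma adjusted p = 0.118). CELA3A, another acinar enzyme gene, lay between 6.34 and 7.69 on the knockdown arrays and between 7.03 and 7.77 on the control arrays (log2 fold change -0.45, limma adjusted p = 0.378). The part of these transcripts in the values of the EGFR family was not tested.

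The first question was which family transcripts the cells carried above background. Of the 15 probes, 6 were detected on all 12 arrays, for 4 genes: 2 for EGFR, 1 for EREG (epiregulin, a ligand of EGFR and ERBB4), 1 for HBEGF (heparin-binding EGF-like growth factor, also the receptor for diphtheria toxin) and 2 for TGFA (transforming growth factor alpha). The other 9 probes were detected on fewer than 6 of the 12 arrays and were left out of the test. These were all 3 probes of ERBB2, all 3 of ERBB3, the 1 probe of BTC (betacellulin, a ligand of EGFR and ERBB4) and 2 probes of EGFR. The array therefore registered 1 of the 3 receptors and 3 of the 4 ligands with a probe. Over the whole array 16495 of 47323 probes and 9780 of 20046 named genes were detected on 6 or more arrays.

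**Figure D1:**
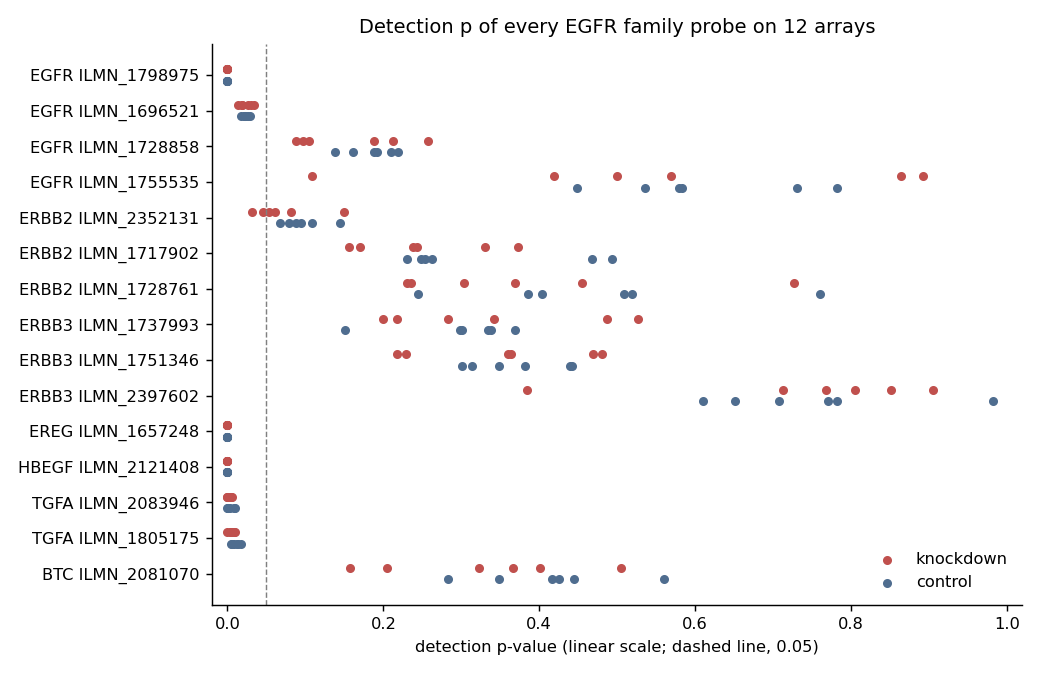
Detection p (linear horizontal axis) of each of the 15 EGFR family probes on the 6 knockdown arrays (red, upper row of each probe) and the 6 control arrays (blue, lower row). The 6 probes of EGFR, EREG, HBEGF and TGFA left of the dashed line at 0.05 were detected on all 12 arrays, and of the rest only ERBB2 probe ILMN_2352131 crossed the line, on 2 knockdown arrays.

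ERBB2 came closest to the background limit. Its probe ILMN_2352131 had a detection p between 0.0312 and 0.149 on the knockdown arrays and between 0.0675 and 0.145 on the control arrays. It was detected on knockdown 2 and knockdown 6, the arrays with the most detected probes, and on none of the 6 control arrays. The raw signal of this probe ran from 213.1 to 241.8 on the knockdown arrays (median 230.2) and from 197.2 to 236.7 on the control arrays (median 223.7), so the groups overlapped. Its mean log2 value was 6.37 in the knockdown and 6.23 in the control group, below the 6.62 that the lowest detected signals set as the bound for the controls, and no fold is given. The other ERBB2 probes, ILMN_1717902 and ILMN_1728761, had detection p-values between 0.156 and 0.727 on the knockdown arrays and between 0.23 and 0.76 on the control arrays.

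ERBB3 and BTC were not above background on any array. The 3 ERBB3 probes, of which ILMN_1737993 and ILMN_2397602 are annotated to the short secreted form, had detection p-values from 0.199 to 0.905 on the knockdown arrays and from 0.151 to 0.982 on the control arrays. The raw signal of the BTC probe ran from 156.5 to 196.2 on the knockdown arrays and from 153.4 to 178.2 on the control arrays, with detection p-values from 0.157 to 0.505 on the knockdown and from 0.283 to 0.56 on the control arrays. The array thus sets only an upper bound on these transcripts, and no difference between the groups could be measured for them.

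The second question was whether the detected family members differed between knockdown and control cells. None of the 6 detected probes passed the test (limma, Benjamini-Hochberg adjusted p under 0.05 over all 16495 detected probes), against 0.303% of all detected probes (0.255% higher and 0.0485% lower in the knockdown). At an unadjusted p under 0.05 there were 4 of the 6, with 1 higher (HBEGF) and 3 lower (EREG and both EGFR probes) in the knockdown. At that limit stood 14.5% of all detected probes, 8.81% higher and 5.67% lower. The groups overlapped for all 6 probes, while for 1.56% of all detected probes they did not. The members were chosen with earlier results of these data known, so these counts are a description.

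**Figure D2:**
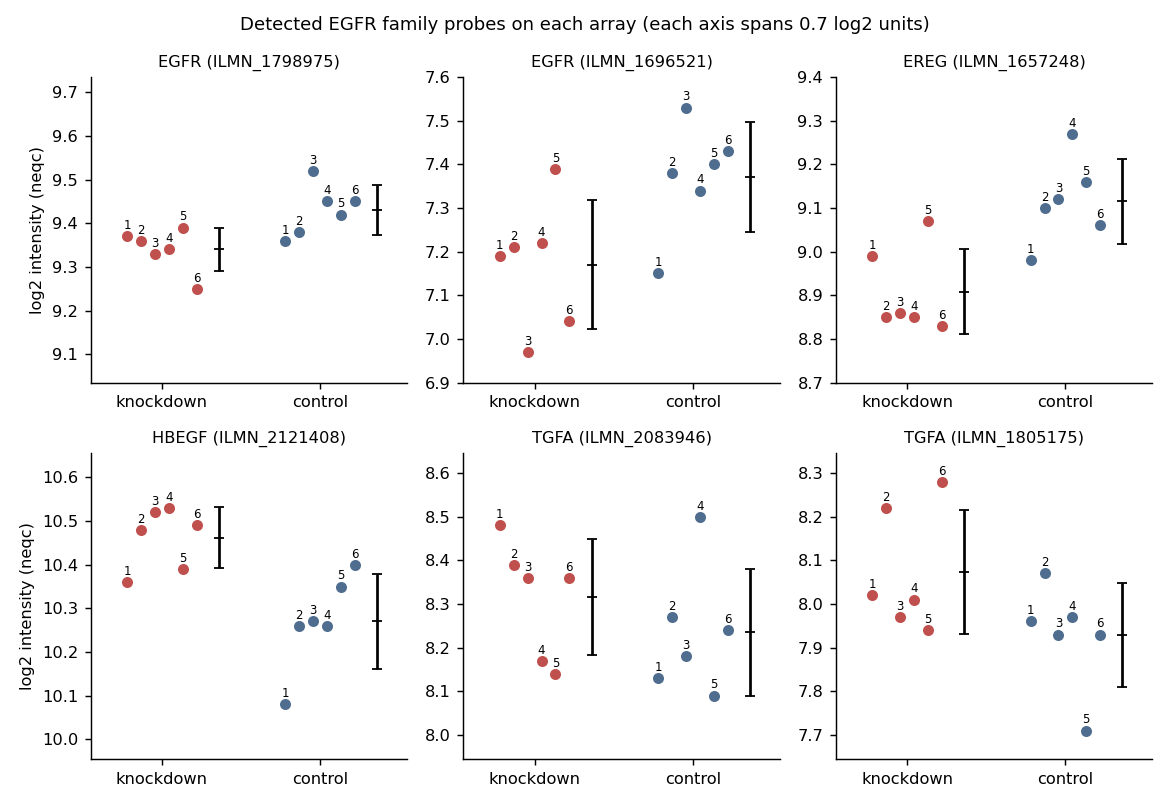
Normalised log2 intensity (vertical axes, each spanning the same range) of the 6 detected EGFR family probes on the knockdown arrays (red, left) and the control arrays (blue, right). Points carry the replicate number and the bars give mean ± SD. The groups overlap in every panel, with HBEGF mostly higher and EREG mostly lower on the knockdown arrays.

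EGFR, a receptor for EREG, HBEGF, TGFA and BTC, had its lower values on the knockdown arrays with both detected probes. Probe ILMN_1798975, annotated to the full-length receptor transcript, had log2 intensities from 9.25 to 9.39 on the knockdown arrays (median 9.35) and from 9.36 to 9.52 on the control arrays (median 9.44). All 6 knockdown values lay below the control median, 3 of them below the lowest control, and control 1 and control 2 lay within the range of the knockdown arrays. The log2 fold change was -0.09 ± 0.04 (SE, n = 6 per group; 95% confidence interval -0.17 to -0.01), a linear change of -6.03%, with a limma adjusted p of 0.315 and an exact two-sided permutation p of 0.0152. The raw signal of this EGFR probe ran from 732.5 to 838.4 in the knockdown and from 778.4 to 890.0 in the control group. Scaling by the median of each array in place of quantile normalisation gave the typical detected probe a log2 fold change of 0.12. The EGFR value was then 0.04 (exact two-sided permutation p = 0.53), which is -0.08 after subtraction of that shift.

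Probe ILMN_1696521, annotated to an EGFR transcript that encodes a truncated form without the kinase domain, was near background, with detection p-values from 0.0143 to 0.0338 on the knockdown arrays and from 0.0169 to 0.0286 on the control arrays. Its log2 intensities ran from 6.97 to 7.39 on the knockdown arrays (median 7.20) and from 7.15 to 7.53 on the control arrays (median 7.39). All 6 knockdown values lay below the control median, and control 1, at 7.15, lay below 4 of the knockdown arrays. The log2 fold change was -0.20 ± 0.08 (SE; 95% confidence interval -0.37 to -0.04; limma adjusted p = 0.264; exact two-sided permutation p = 0.039), or -0.10 without background correction. A further probe annotated to the same transcript, ILMN_1755535, and probe ILMN_1728858 of another truncated form were not detected on any array, so the signal of ILMN_1696521 cannot be assigned to the truncated form with certainty. Its probe sequence was not used here.

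EREG and HBEGF had values in opposite directions. The EREG probe had log2 intensities from 8.83 to 9.07 on the knockdown arrays (median 8.85) and from 8.98 to 9.27 on the control arrays (median 9.11). Of the knockdown arrays, 4 lay below every control, and knockdown 1 and knockdown 5 lay among the lower controls. The log2 fold change was -0.20 ± 0.06 (SE, n = 6 per group; 95% confidence interval -0.33 to -0.08), a linear change of -13.2%, with a limma adjusted p of 0.175 and an exact two-sided permutation p of 0.0108. The raw EREG signal ran from 574.5 to 689.2 in the knockdown and from 670.1 to 801.7 in the control group. With scaling by the median the value was -0.09, which is -0.21 after subtraction of the same shift. Before that subtraction its 95% confidence interval, -0.27 to 0.09, included 0 (exact two-sided permutation p = 0.21).

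HBEGF was the family probe with its higher values on the knockdown arrays at an unadjusted p under 0.05. Its log2 intensities ran from 10.36 to 10.53 on the knockdown arrays (median 10.48) and from 10.08 to 10.40 on the control arrays (median 10.27). Of the knockdown arrays, 4 lay above every control, and knockdown 1 and knockdown 5 lay below control 6, the highest control. The log2 fold change was 0.19 ± 0.05 (SE, n = 6 per group; 95% confidence interval 0.07 to 0.31), a linear change of 14.1%, with a limma adjusted p of 0.177 and an exact two-sided permutation p of 0.00866. The raw HBEGF signal ran from 1496 to 1684 in the knockdown and from 1305 to 1502 in the control group. With scaling by the median the value was 0.33 (exact two-sided permutation p = 0.0152), which is 0.21 after subtraction of the shift. Knockdown 1 and knockdown 5 were thus the knockdown arrays nearest to the controls for both EREG and HBEGF.

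The values of TGFA overlapped widely between the groups. Its brighter probe, ILMN_2083946, had log2 intensities from 8.14 to 8.48 on the knockdown arrays (median 8.36) and from 8.09 to 8.50 on the control arrays (median 8.21), and the highest and the lowest value of all 12 arrays were both controls. The log2 fold change was 0.08 ± 0.08 (SE; 95% confidence interval -0.09 to 0.25; limma adjusted p = 0.645; exact two-sided permutation p = 0.32). The other probe, ILMN_1805175, annotated to a second TGFA transcript, had 7.94 to 8.28 on the knockdown arrays (median 8.01) and 7.71 to 8.07 on the control arrays (median 7.95). Its log2 fold change was 0.14 ± 0.07 (SE; 95% confidence interval -0.01 to 0.30; limma adjusted p = 0.385; exact two-sided permutation p = 0.0996). The 2 knockdown values above every control were those of knockdown 2 and knockdown 6, and without these arrays the value was 0.05. The intervals of both TGFA probes include 0 and also a value as large as that of HBEGF.

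**Figure D3:**
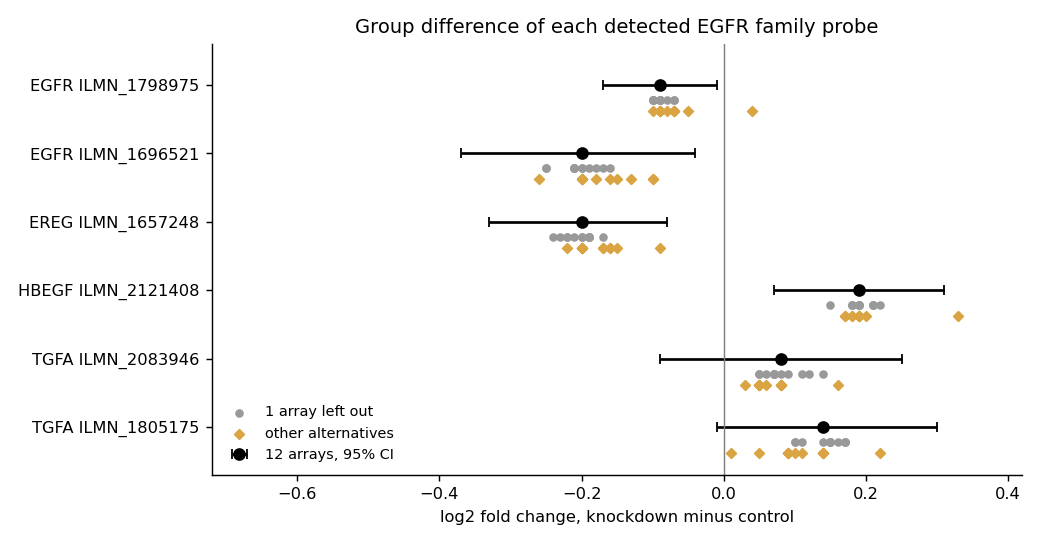
Log2 fold change (horizontal axis, knockdown minus control) of the 6 detected EGFR family probes, with the 95% confidence interval from 12 arrays (black). Grey points leave out 1 array each and yellow diamonds are the other processing alternatives. The EGFR probe ILMN_1798975 crosses 0 under scaling by the median, at 0.04. The values of every other probe, those of TGFA included, stay on their own side of 0 throughout. Under scaling by the median the EREG interval, not drawn, includes 0.

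When each array's count of detected probes was added to the fit, the log2 fold change was -0.15 for EREG, 0.20 for HBEGF, -0.05 and -0.16 for the EGFR probes ILMN_1798975 and ILMN_1696521, and 0.08 and 0.01 for the TGFA probes ILMN_2083946 and ILMN_1805175. Without knockdown 2 and knockdown 6 it was -0.17 for EREG and 0.18 for HBEGF (limma adjusted p = 0.432 and 0.417). The HBEGF value thus changed little with either step, while that of TGFA probe ILMN_1805175 came near 0.

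The transcripts most like each detected member were sought over the 12 arrays after each group's mean had been subtracted, among the 9780 genes with a detected probe. For EGFR they were REP15 (Pearson r = 0.93, Spearman rho = 0.86) and MAEA (r = 0.90, rho = 0.90). For EREG they were ARPC3 (r = 0.86, rho = 0.89) and SH3D21 (r = 0.84, rho = 0.69). HBEGF came closest to EFTUD2 (r = 0.91, rho = 0.98) and NRBP1 (r = 0.91, rho = 0.83), and TGFA to IFI44 (r = 0.89, rho = 0.88) and ALDH3A2 (r = 0.88, rho = 0.84). NRBP1 itself passed the test (log2 fold change 0.22, limma adjusted p = 0.0471). Within the knockdown and the control group, r was 0.69 and 0.99 for NRBP1 and 0.77 and 0.98 for IFI44. For the other genes named here it was 0.82 or above in each group. No family member was among the closest genes of another. With so many genes and 12 arrays, high values arise by selection, and all arrays share their processing, so these correlations are descriptions.

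The third question was how the rest of the pathway stood. In 7 further lists of 90 pathway genes, 82 had a named probe and 69 were detected, and none of the 69 passed the test (limma adjusted p), against 0.389% of all 9780 detected genes. At an unadjusted p under 0.05 there were 15 of the 69, with 9 higher and 6 lower in the knockdown, where 9.93% of all detected genes stood at that limit with a higher and 5.05% with a lower value. The groups did not overlap for 4 of the 69 (TIMP1, LRIG1, JUN and HGS), against 1.91% of all detected genes. TIMP1, the target of the hairpin, is counted among both the 15 and the 4. The median log2 fold change of all detected genes was 0.02.

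Of the ERBB ligands and receptor outside the family set, NRG1 was the detected gene, on 1 of its 7 probes. ERBB4, EGF, NRG2, NRG3 and NRG4 were not detected. NRG1, a ligand of ERBB3 and ERBB4, ran from 5.84 to 7.53 on the knockdown arrays (median 6.77), where 4 of 6 arrays detected it, and from 6.67 to 7.70 on the control arrays (median 7.42), where all 6 did. Its log2 fold change was -0.51 ± 0.27 (SE; 95% confidence interval -1.11 to 0.08; limma adjusted p = 0.409), or -0.27 without background correction. The groups overlapped.

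Of 16 sheddases, their regulators and TIMPs, 15 were detected and 0 passed, with a list median of 0.02. At an unadjusted p under 0.05 there were 4, TIMP1 among them, against 1465 of all 9780 detected genes. ADAM17, the main sheddase of HBEGF, TGFA and EREG, ran from 9.74 to 10.17 on the knockdown arrays and from 9.59 to 9.82 on the control arrays, with a log2 fold change of 0.18 (limma adjusted p = 0.343). Its other detected probe had -0.00, and without knockdown 2 and knockdown 6 the first had 0.06. ADAM10, the main sheddase of BTC and EGF, had -0.11 (adjusted p = 0.313), with 9.01 to 9.13 on the knockdown arrays and 9.10 to 9.36 on the control arrays. TIMP3, the TIMP that inhibits ADAM17, had 0.18 (adjusted p = 0.24), with 8.16 to 8.39 on the knockdown arrays and 7.95 to 8.26 on the control arrays.

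Among adaptors and the Ras-ERK cascade, 11 of 16 genes had a named probe and 9 of them were detected. Their median was 0.03, with 1 at an unadjusted p under 0.05. MAP2K1, the kinase that activates ERK, had a log2 fold change of 0.12 (limma adjusted p = 0.268), with 12.01 to 12.19 on the knockdown arrays and 11.88 to 12.09 on the control arrays. MAPK3, which encodes ERK1, had 0.13 (0.02 without knockdown 2 and knockdown 6) and 0.06 on its other detected probe. The adaptor SHC1 had -0.07 and -0.15 on its other detected probe, and MAP2K2 had -0.07. In the PI3K, AKT, PLC and STAT branches 7 of 9 genes had a named probe and 5 of them were detected, with a median of -0.01 and none at an unadjusted p under 0.05. The values were -0.06 for PLCG1, 0.09 for PIK3R1, -0.03 for AKT1 and -0.01 for STAT3. The other detected probes had -0.03 and -0.34 for AKT1 and 0.11 and 0.09 for STAT3.

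Of 17 feedback inhibitors of the receptor and of ERK, 16 were detected, with a median of 0.05. At an unadjusted p under 0.05 there were 5, with 3 higher and 2 lower in the knockdown, against 1465 of all 9780 detected genes. LRIG1, a membrane protein that promotes the degradation of ERBB receptors, lay between 8.98 and 9.21 on the knockdown arrays and between 8.84 and 8.95 on the control arrays. Its log2 fold change was 0.15 ± 0.04 (SE; limma adjusted p = 0.177), and its other detected probe had 0.07. The ubiquitin ligase CBL, which marks active EGFR for degradation, had 0.10 (adjusted p = 0.307) and 0.13 on its other probe. RNF41, a ubiquitin ligase of ERBB3, had 0.24 (0.10 without knockdown 2 and knockdown 6), and SOCS4, an adaptor for EGFR degradation, had -0.12, against 0.17 on its other probe.

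The ERK-responsive transcripts gave no common direction: of 14 detected genes, 9 had values above 0 and 5 below, with a median of 0.02. Among all 9780 detected genes 5580 had values above 0 and 4200 below, with the same median. At an unadjusted p under 0.05 stood 1 of the 14. The immediate early gene EGR1 had a log2 fold change of -0.09 (limma adjusted p = 0.314), with 10.38 to 10.50 on the knockdown arrays and 10.45 to 10.60 on the control arrays. JUN had 0.07 (adjusted p = 0.40) and PLAUR, the urokinase receptor, 0.10, with 0.16 and 0.02 on its other detected probes. FOS had 0.32, but it was detected on 5 of 6 knockdown arrays and 1 of 6 control arrays and had 0.15 without background correction and 0.12 without knockdown 2 and knockdown 6.

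Of 10 genes of receptor endocytosis and sorting, 9 were detected, with a median of 0.05. At an unadjusted p under 0.05 there were 4, with 3 higher and 1 lower, against 1465 of all 9780 detected genes. HGS, a sorting protein that directs ubiquitinated EGFR towards lysosomes, lay between 12.25 and 12.45 on the knockdown arrays and between 12.13 and 12.23 on the control arrays, with a log2 fold change of 0.14 ± 0.04 (SE; limma adjusted p = 0.189). Its partner STAM had 0.08 (adjusted p = 0.318) and the endocytic adaptor EPS15 0.22 (adjusted p = 0.214; 0.13 without background correction). RAB5A, a GTPase of early endosomes, had -0.12 (adjusted p = 0.296), with 9.79 to 10.08 on the knockdown arrays and 10.01 to 10.15 on the control arrays. Under scaling by the median, values of all these genes are to be read against the shift of 0.12 that it gave to the median of all detected probes.

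**Figure D4:**
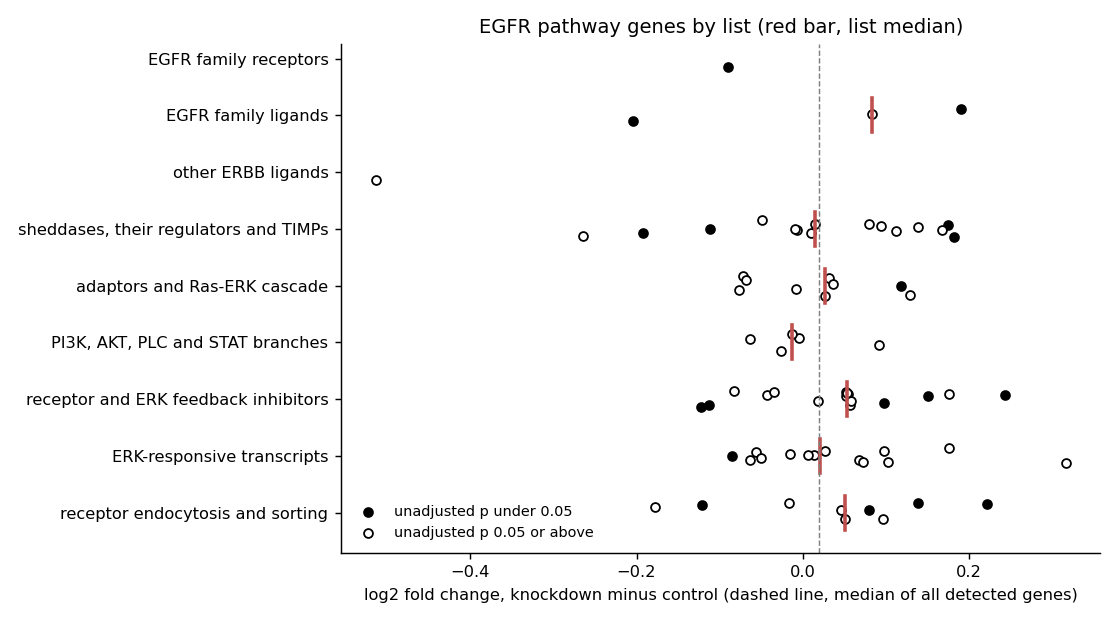
Log2 fold change (horizontal axis, knockdown minus control) of each detected gene of the EGFR family and of 7 pathway lists, by its brightest detected probe. Filled points had an unadjusted p under 0.05, red bars are list medians and the dashed line is the median of all detected genes at 0.02. Every list with more than 1 detected gene has points on both sides of 0.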

How the data were processed

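Total RNA of 12 PANC-1 samples was measured, grouped and numbered by their titles. For each of 47323 probes and each array, the deposited raw table gives a linear signal intensity with its detection p-value, per the file headers. In the authors' processed table the normalised intensity equalled a quantile normalisation of those signals to within 3.33e-06. Limma is named, without its role, in the submitters' processing notes; the scanner software was not stated in the sources read.

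Signals were normalised with neqc of limma 3.58.1 in R 4.3.3 (normal-exponential background model using the detection p-values, offset 16, quantile normalisation, log2). Dim probes thereby give fold changes that are too small, and a shift shared by all probes is lost. The 16495 probes with a detection p under 0.05 on 6 or more arrays were kept. A single gene symbol was given for 30113 probes, several for 8 and none here for 17202. Of those with a single symbol, 30074 took the RefSeq symbol of GRCh38.p14 through the gene number, whether or not it differed. Outside the family, the detected probe of highest mean stood for a gene. Groups were compared with lmFit and eBayes on all 12 arrays, with Benjamini-Hochberg adjustment over all detected probes and a threshold of 0.05, and the 6 detected family probes and TIMP1 also with exact two-sided permutation tests over 924 assignments (scipy 1.17.1). Precision is limited by the number of arrays. The fit was tested on simulated data. Outside the family, the text names list members past the threshold or else up to 4 with the smallest p, and the 2 genes most like each detected member. Alternatives changed the background correction, normalisation, detection filter, variance model and arrays used. The members, lists and alternatives were chosen with earlier results of these data known. Some pathway genes are not reported here.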

Additional observations from a re-analysis of the deposited data

How the results depend on the processing

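None of the EGFR family probes passed the adjusted threshold of 0.05 under any of 24 alternatives, and 1 to 5 of them stood at an unadjusted p under 0.05. Where 16495 probes were tested, 6 of them family probes, between 1152 and 3053 of all probes stood at that limit. Among probes detected at p under 0.01 on all arrays it was 3 of 3 family probes and 1508 of all 9417. Without the detection filter it was 4 of 15 family probes and 4440 of all 47323. Among these alternatives, no background correction and the authors' processed values used the same intensities to within 3.33e-06, so they are not separate checks. EREG stayed below 0 (-0.24 to -0.17 with 1 array left out, -0.22 to -0.09 otherwise; adjusted p 0.0861 to 0.71) and HBEGF above 0 (0.15 to 0.22 and 0.17 to 0.33; adjusted p 0.09 to 0.636). EGFR probe ILMN_1798975 turned to 0.04 under median scaling, where the median of all detected probes shifted by 0.12. Under the other processing alternatives it had -0.10 to -0.05, and with 1 array left out -0.10 to -0.07. EGFR probe ILMN_1696521 also stayed below 0 (-0.26 to -0.10 over all its alternatives) and TGFA probe ILMN_1805175 above 0 (0.01 to 0.22). TGFA probe ILMN_2083946 had 0.05 to 0.14 with 1 array left out and 0.03 to 0.16 otherwise, and was not among the probes detected at p under 0.01 on all arrays, nor were the dimmer EGFR and TGFA probes. Averaging a gene's detected probes also left 0 of the 69 detected list genes past the threshold, against 73 of all 9780 detected genes.

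Across all detected probes, 50 were called, against 32 with cyclic loess, 11 with median scaling, 11 without the detection filter, 28 with the replicate number as a block, 90 with an intensity trend and robust fit, 2 without knockdown 2 and 6, and 0 with the number of detected probes as a covariate (1152 at an unadjusted p under 0.05). Leaving out 1 array gave between 1 and 145 calls: 145 without knockdown 1, 63 without control 6 and between 1 and 8 without any other array. The labels do not say that equal replicate numbers pair the samples. Deviations of same-numbered arrays correlated between -0.11 and 0.19, and 2 of 6 knockdown arrays correlated best with their own number. TIMP1 passed among probes detected at p under 0.01 on all arrays (adjusted p = 0.0449) and with the intensity trend (adjusted p = 0.0249), over a range of 0.0249 to 0.517. In the fit with the replicate block EREG had -0.20 (adjusted p = 0.22), HBEGF 0.19 (adjusted p = 0.191), EGFR -0.09 and TGFA 0.08. The causes of these changes were not tested. Dim probes (ERBB2, NRG1, FOS, EGFR probe ILMN_1696521) limit what can be measured near background.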
